A study of Mus musculus with 4 samples.

Results

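The CEBP family genes Cebpa, Cebpb, Cebpd, Cebpe and Cebpg were described by the open chromatin around them in mouse microglia, the resident macrophages of the brain. All deposited ATAC-seq peaks that overlapped the 5 gene bodies or the 50 kb on each side were taken. These numbered 101 of 143525 distinct peaks in WT replicate 1, 109 of 177972 in WT replicate 2, 99 of 180970 in IRF8KO replicate 1 and 102 of 173590 in IRF8KO replicate 2. ATAC-seq marks accessible DNA through the cuts that the Tn5 transposase makes in it. Peaks whose −log10 q reached 2 are here termed strict. Overlapping strict peaks from any library were joined, which gave 155546 regions, 102 of them in the 5 windows. On GRCm38 with GENCODE M21, Cebpa lies at chr7:35119293-35121928, Cebpb at chr2:167688915-167690418 and Cebpd at chr16:15887286-15891031, all on the plus strand. Cebpe lies at chr14:54710360-54712174 and Cebpg at chr7:35046422-35056573, both on the minus strand.

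Both groups were untreated C57BL/6 mice aged 3 months, with microglia isolated without enzymes and sorted by flow cytometry. The genotype was WT in 2 libraries and IRF8KO in 2, where IRF8 is an interferon regulatory factor of myeloid cells. The labels speak of a brain of each genotype and give neither the allele behind IRF8KO nor whether the 2 libraries of a genotype came from separate mice, so the spread between them, and any p-value, may be technical. The question posed was how accessibility at the Cebp genes compares between the genotypes.

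C/EBP proteins are basic leucine zipper transcription factors that bind DNA as dimers with one another and with related factors. Cebpa drives commitment of haematopoietic progenitors to the myeloid lineage, Cebpb and Cebpd are induced in macrophages by inflammatory signals, and Cebpe acts in late granulocyte maturation. Cebpg encodes a short protein without the activation domains of the others that acts mainly as a dimer partner.

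WT replicate 1 held 46948938 tags and WT replicate 2 held 48896408, whereas IRF8KO replicate 1 held 78793572 and IRF8KO replicate 2 held 66224648. Tag size was 50 bp in WT and 49 bp in IRF8KO. Depth and tag size both followed genotype, and their part in any difference cannot be told apart from it. Of 10 microglia markers, all held a strict promoter peak in both WT libraries and 9 did in both IRF8KO libraries, where Sall1 had none. Their summed promoter pileup per 1000000 tags was 27.3 and 19.6 in WT, against 10.9 and 18.1 in IRF8KO. The endothelial markers Pecam1, Cldn5 and Cdh5 summed to 6.73 and 5.54 in WT and 1.18 and 1.96 in IRF8KO. Cdh5 gave 5.86 and 4.81 of these sums in WT and 0.647 and 0.936 in IRF8KO. Of 8 neutrophil markers, the promoters of Ltf, Ngp and S100a9 held no peak in any library and 1 to 3 held a strict peak. The oligodendrocyte markers summed to 2.04 and 1.47 in WT, against 0.495 and 1.15 in IRF8KO, and the neuron markers to 0.682 and 0.859, against 0.533 and 0.468. The B or T cell markers summed to 0.234 and 0.225 in WT, against 0.140 and a sum of 0 in IRF8KO. In the other direction, the border macrophage marker Mrc1 had 0.341 and 0.286 in WT, against 0.571 and 1.13 in IRF8KO, and the astrocyte marker Aldh1l1 had 0.405 and 0.205, against 0.850 and 1.53. The astrocyte marker Gfap went the opposite way, with 0.426 and 0.327 in WT, against 0.127 and 0.136 in IRF8KO, and Aqp4 had no peak in any library. The neutrophil sums were 1.75 and 1.55 in WT, against 1.36 and 1.54 in IRF8KO. The sums of all monocyte or border macrophage markers (0.639 and 0.879, against 0.711 and 1.46) and of all astrocyte markers (1.09 and 0.532, against 0.977 and 1.77) overlapped. Strict promoter peaks were held by 1 or 2 of 6 monocyte or border macrophage markers, 1 to 3 of 4 astrocyte, 1 or 2 of 3 oligodendrocyte, 1 to 3 of 3 neuron and 0 or 1 of 4 B or T cell markers. The part of such cells in the results was not tested.

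Sequences are shown for 2 neighbouring regions near Cebpg listed mainly in WT, for both regions with an ETS-IRF match, and for the 3 regions with the largest IRF8KO excess without overlap. The largest WT excesses by ratio lay elsewhere and are given by value only. Each is the GRCm38 plus strand within 100 bp of the summit, in lower case, with matches to any of 6 searched motifs in capitals. The first pair had strict peaks in WT alone and lay upstream of Cebpg, at chr7:35066687-35066887 and chr7:35066040-35066240. Both held ACTTCCT, the reverse complement of the ETS motif AGGAAGT. The latter also held TTTCACTTCC, on the minus strand a match to the ETS-IRF composite (GGAA, any 2 bases, then GAAA), the kind of site at which IRF8 binds with PU.1.
Cebpg 10.2 kb upstream: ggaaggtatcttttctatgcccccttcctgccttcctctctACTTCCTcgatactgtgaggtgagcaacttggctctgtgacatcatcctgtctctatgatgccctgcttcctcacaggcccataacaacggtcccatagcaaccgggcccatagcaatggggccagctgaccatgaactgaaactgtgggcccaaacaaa
Cebpg 9.6 kb upstream: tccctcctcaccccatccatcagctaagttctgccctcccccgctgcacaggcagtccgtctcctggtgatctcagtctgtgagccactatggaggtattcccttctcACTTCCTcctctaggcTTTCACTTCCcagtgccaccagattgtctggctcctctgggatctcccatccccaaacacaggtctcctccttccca

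The next lay 45.1 kb upstream of Cebpb in a UTR of Tmem189, at chr2:167643879-167643908, and only the ETS-IRF match with 10 bases on each side is shown.
Cebpb 45.1 kb upstream: aaggagaagaGGAAATGAAAagtgggtggc

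The last 3 were more accessible in IRF8KO and lay at chr2:167649329-167649529, chr2:167715077-167715277 and chr7:35106723-35106923. Capitals mark the AP-1 motif TGACTCA in the first and a match to the C/EBP motif TTGCNNAA in each of the others, read on the minus strand in the last.
Cebpb 39.5 kb upstream: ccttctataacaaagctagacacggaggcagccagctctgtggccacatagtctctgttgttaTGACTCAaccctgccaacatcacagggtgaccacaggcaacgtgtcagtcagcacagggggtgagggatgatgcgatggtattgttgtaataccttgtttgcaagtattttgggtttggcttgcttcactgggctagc
Cebpb 26.3 kb downstream: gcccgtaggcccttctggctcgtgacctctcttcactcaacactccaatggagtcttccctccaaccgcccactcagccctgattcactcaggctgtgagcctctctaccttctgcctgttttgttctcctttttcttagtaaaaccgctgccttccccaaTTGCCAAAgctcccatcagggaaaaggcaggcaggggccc
Cebpa 12.5 kb upstream: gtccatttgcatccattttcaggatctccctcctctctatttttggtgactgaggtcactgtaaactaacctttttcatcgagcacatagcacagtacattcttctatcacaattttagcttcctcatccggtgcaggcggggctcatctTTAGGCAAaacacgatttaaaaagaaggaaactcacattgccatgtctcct

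Promoter regions of all 5 genes, meaning those within 1 kb of an annotated start, were accessible in both genotypes. Values are scaled pileups: the authors' depth of extended cut sites at the peak summit, per 1000000 of the tags stated in the header of the same list. They assume that pileup scales with tag number and are set side by side as a description. Over the 58550 regions with a deposited peak in all 4 libraries, the median log2 ratio of IRF8KO over WT was -0.28, so a ratio of that size is the common shift. Values were therefore also compared after the median of these regions had been set equal in every library, called the centred scale.

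Cebpa, the lineage factor, had a scaled promoter pileup of 7.84 in WT replicate 1, 6.85 in WT replicate 2, 6.05 in IRF8KO replicate 1 and 7.81 in IRF8KO replicate 2. The groups overlapped, although on the centred scale both IRF8KO values lay above both WT values. This promoter stood high in the genome, since only 414 of 12322 protein-coding genes with a strict promoter peak in all 4 libraries had a higher mean. Smaller regions 0.9 and 0.7 kb upstream had 1.13 and 0.900 in WT, against 0.850 and 0.846 in IRF8KO, and 1.58 and 1.45, against 1.17 and 1.42. On the centred scale both overlapped.

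Cebpg, the dimer partner, had promoter values of 7.90 and 7.14 in WT, against 4.29 and 6.95 in IRF8KO. Both WT values lay above both IRF8KO values on either scale, by 1.34-fold in the means, and the SD in IRF8KO was 1.88. The log2 ratio of -0.421 rested in large part on IRF8KO replicate 1. It was -0.115 without that library and -0.81 without IRF8KO replicate 2. A second region 0.7 kb upstream of Cebpg had 3.00 and 2.39 in WT, against 1.79 and 2.13 in IRF8KO, and overlapped on the centred scale. The promoter of Cebpd stood at 4.11 and 3.80 in WT and 3.24 and 3.90 in IRF8KO, and the groups overlapped.

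Cebpb, the inflammation-responsive member, had 2.13 and 1.68 in WT and 1.27 in each IRF8KO library. The region also lies within 1 kb of a start of the neighbouring gene Tmem189. WT averaged 1.90 ± 0.320 and IRF8KO 1.27 ± 0.000516 (SD, n = 2 each), but the groups overlapped on the centred scale. The same held over the Cebpb coding exon, 0.9 kb past the start, with 0.895 and 0.736 in WT and 0.533 and 0.664 in IRF8KO.

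Cebpe, the granulocyte factor, had the lowest promoter values of the 5, at 1.70 and 1.55 in WT, against 0.926 and 1.09 in IRF8KO. Unlike the regions ranked for the other genes, this one did not cover the start, and its summit lay 0.86 kb upstream. The means of 1.63 ± 0.106 and 1.01 ± 0.114 (SD, n = 2 each) were 1.62-fold apart, and the groups did not overlap on either scale. Relative to the median of all regions the log2 difference was -0.41, and 22.6% of the 58550 regions had a ratio as low or lower. In order of mean level over the 4 libraries the promoters ran Cebpa, Cebpg, Cebpd, Cebpb and Cebpe. The first places differed by genotype, as Cebpg averaged 7.52 and Cebpa 7.34 in WT, against 5.62 and 6.93 in IRF8KO. In WT and in IRF8KO alike, the values of Cebpa and Cebpg overlapped, and those of Cebpg and Cebpd, and of Cebpd and Cebpb, did not. Cebpb and Cebpe overlapped in WT but not in IRF8KO.

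Each promoter had near neighbours in level and pattern among the 12322 genes, by the Euclidean distance of log2 scaled promoter pileup over the 4 libraries. The 3 nearest to Cebpa were Rab5a, Gadd45a and Bambi, at distances of 0.0530 to 0.0962. Nearest to Cebpb were Snai1, Adprm and Sco1, at 0.0829 to 0.105, where Adprm and Sco1 had identical values in all 4 libraries. Cebpd lay closest to Myl6b, Apeh and Rnf103, at 0.0831 to 0.108. For Cebpe the nearest were Snx6, Sned1 and E030030I06Rik, at 0.140 to 0.175, and for Cebpg they were Npc1, 2410131K14Rik and Rnft2, at 0.0875 to 0.103. The values of 2410131K14Rik and Rnft2 were likewise identical.

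**Figure D1:**
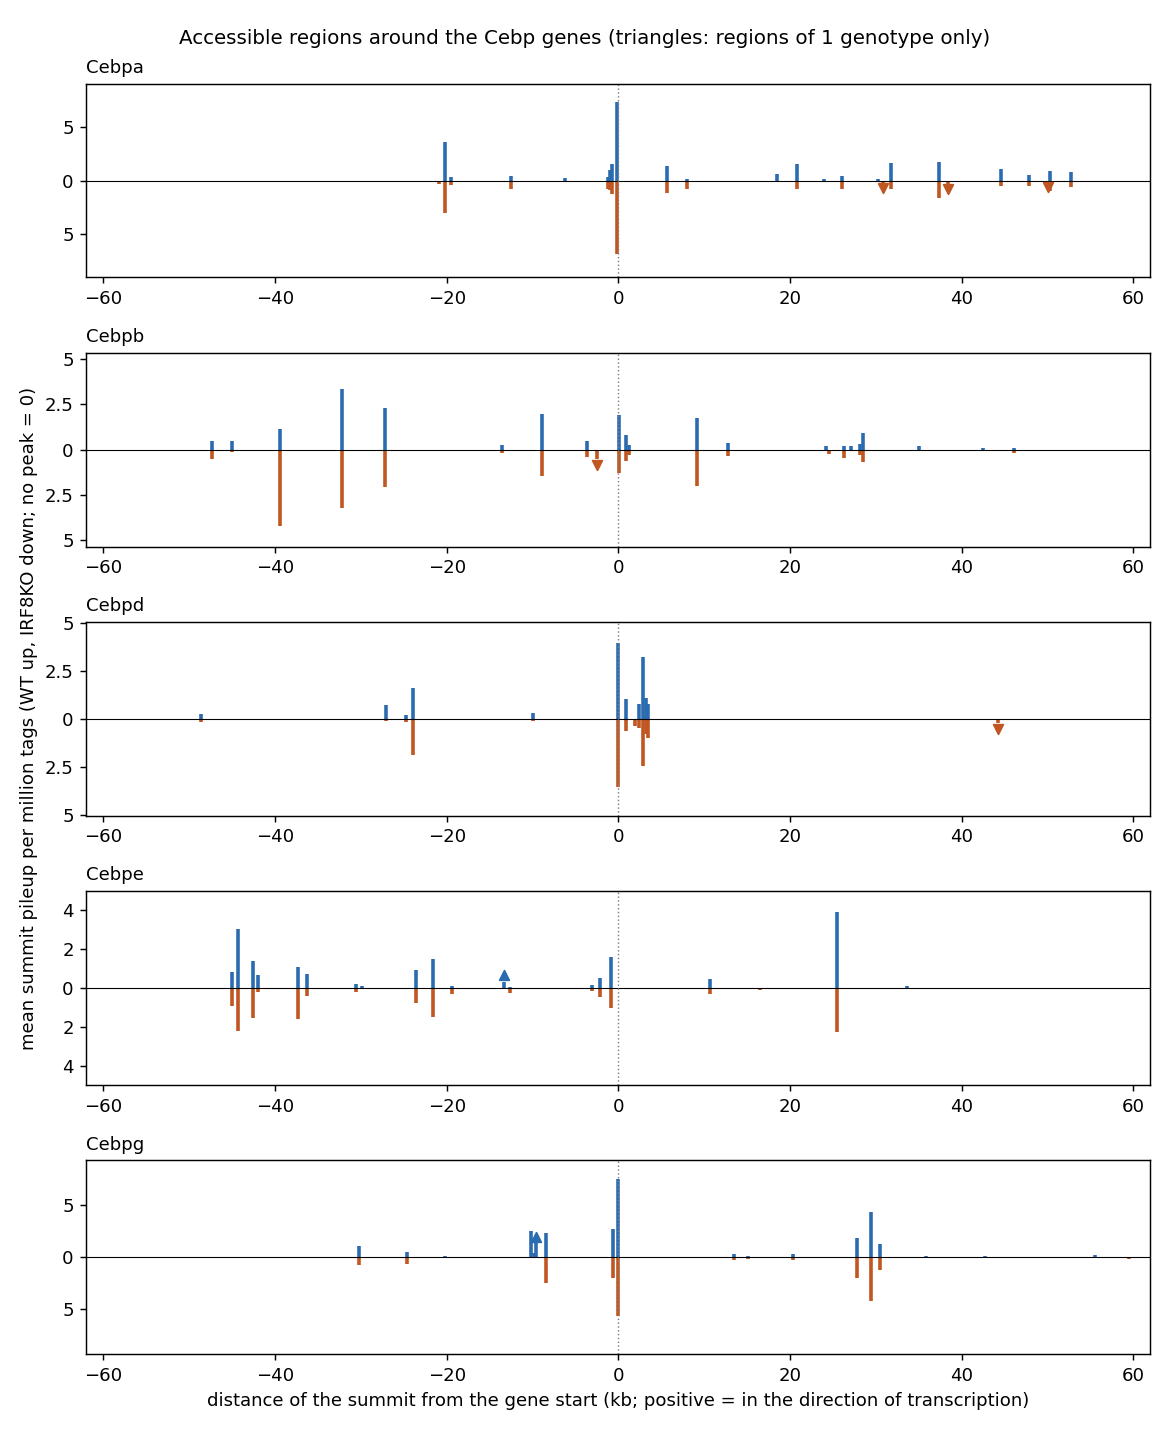
Mean scaled summit pileup (per 1000000 tags) of each region (WT up in blue, IRF8KO down in orange, no peak counted as 0) against distance from the gene start in kb. The promoter is the tallest region at Cebpa, Cebpg and Cebpd, whereas at Cebpb the tallest IRF8KO bar lies 39.5 kb upstream; triangles mark regions of 1 genotype only.

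The difference in the number of strict peaks around the genes was smaller than the spread between the WT libraries. The 5 windows held 85 strict peaks in WT replicate 1, 73 in WT replicate 2, 73 in IRF8KO replicate 1 and 77 in IRF8KO replicate 2. The means were 79.0 ± 8.49 for WT and 75.0 ± 2.83 for IRF8KO (SD, n = 2 each). A two-sided exact permutation test gave p = 1.0; with 2 libraries in each group the smallest p it can return is 0.333. The difference of -4 became 2 without WT replicate 1, -10 without WT replicate 2 and -2 without IRF8KO replicate 1. Strict peaks covered 25523 and 21802 bp in WT and 24353 and 26773 bp in IRF8KO, an excess of 1900.5 bp in IRF8KO (exact permutation p 0.667, two-sided, n = 2 each). That excess was 40 bp without WT replicate 2, 690.5 bp without IRF8KO replicate 2, 3110.5 bp without IRF8KO replicate 1 and 3761 bp without WT replicate 1.

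By gene, Cebpa had 21 and 19 strict peaks in WT and 22 and 23 in IRF8KO, Cebpe had 18 and 16 against 14 and 15, and Cebpg had 18 and 18 against 15 and 17. In these 3 windows the groups did not overlap, with more peaks in IRF8KO at Cebpa and fewer at Cebpe and Cebpg (exact permutation p 0.333 each, n = 2 each). Among the same windows of 21728 protein-coding genes, 9.30% had more strict peaks in both IRF8KO libraries and 26.2% had more in both WT libraries. Over the whole genome strict peaks numbered 97473 and 98863 in WT, against 83996 and 95921 in IRF8KO, so fewer in IRF8KO was also the direction of the libraries as a whole. Cebpb, with 20 and 14 against 18 and 17, and Cebpd, with 12 and 10 against 8 and 10, overlapped. The windows of Cebpa and Cebpg lie next to each other on chromosome 7 and share 6 regions.

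**Figure D2:**
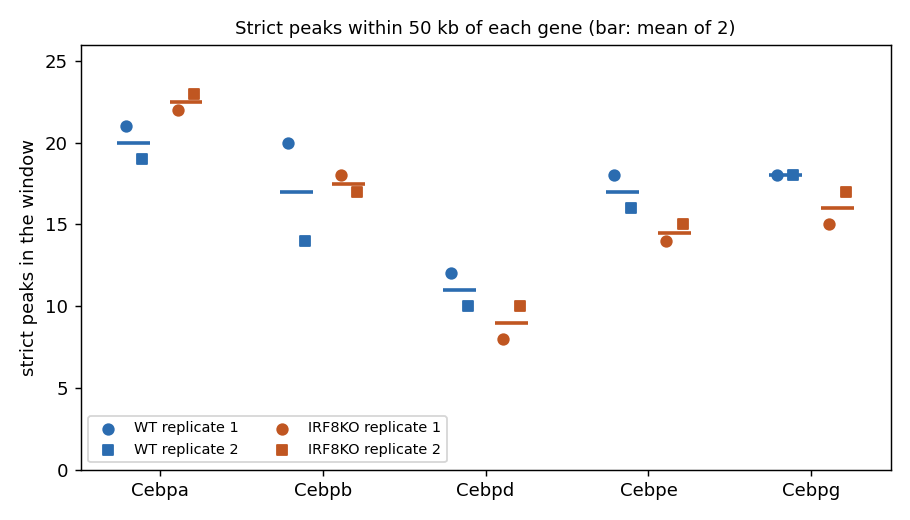
Number of strict peaks within 50 kb of each gene in each library, with the mean of 2 libraries as a bar. Cebpa points of IRF8KO lie above those of WT (22 and 23 against 21 and 19), and the reverse holds at Cebpe and Cebpg.

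Of the 102 regions, 51 were strict in every library, against a background of 31.0% of all regions. The median length of the 102 regions was 266 bp, against 197 bp over all regions. Only 24 (23.5%) were strict in 1 library alone, against 43.1% of all regions, and 13 of these 24 came from WT replicate 1. Annotated starts of genes lay within 1 kb of 24 of the regions, 11 of them starts of a Cebp gene.

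WT-only regions were strict in both libraries of WT with nothing deposited, however weak, in either IRF8KO library, and IRF8KO-only regions were the converse. There were 2 WT-only regions (1.96%), against a background of 5.58% of all regions, and 5 IRF8KO-only regions (4.90%), against 3.86%. Regions of either kind made up 9.44% of all regions. The WT-only share lay below its background, but equalled it (7.84% against 7.85%) when absence was taken as no strict peak. The IRF8KO-only share lay near its background, and above or below it depending on the setting. Without WT replicate 2 there were 12 WT-only regions (11.9%, against 15.3% of all regions), and without IRF8KO replicate 2 there were 7 of 100 (against 10.3%). IRF8KO-only regions numbered 9 of 101 without WT replicate 2 (8.91%, against 5.69%), 9 of 100 without IRF8KO replicate 1 (against 15.0%) and 9 of 100 without IRF8KO replicate 2 (against 14.4%).

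With absence taken as no strict peak, 6 further regions joined the 2 WT-only ones and 5 joined the 5 IRF8KO-only ones, each with a peak below the strict threshold in the other genotype. On the WT side they lay 18.4 kb downstream of Cebpa, 27.1 and 9.9 kb upstream and 2.4 kb downstream of the Cebpd start, 41.9 kb upstream of Cebpe and 10.2 kb upstream of Cebpg. The one at 18.4 kb had 0.532 and 0.614 in WT, no peak in IRF8KO replicate 1 and 0.121 in IRF8KO replicate 2. The one at 41.9 kb had 0.745 and 0.654 in WT, no peak in IRF8KO replicate 1 and 0.362 in IRF8KO replicate 2. On the IRF8KO side they lay 19.5 and 1.2 kb upstream and 8.0 kb downstream of Cebpa, 26.3 kb downstream of Cebpb and 12.7 kb upstream of Cebpe. The one at 8.0 kb had no peak in WT replicate 1, 0.286 in WT replicate 2 and 0.533 and 1.01 in IRF8KO. At 19.5 kb upstream of Cebpa the values were 0.341 and 0.286 in WT and 0.254 and 0.604 in IRF8KO, which overlapped. Regions given with values in this paragraph were picked after these were seen.

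The stronger WT-only region lay 9.6 kb upstream of Cebpg at chr7:35066019-35066259, in an intron of the lincRNA gene Gm45096. Its scaled pileup was 1.90 in WT replicate 1 and 1.33 in WT replicate 2, and IRF8KO had no peak. The mean of 1.61 ranked high in its class, as 2.69% of the 8673 WT-only regions reached it, and the class median was 0.366. At the smaller WT value, 88.0 stacked cut sites would have been expected in the shallower IRF8KO library, whereas its weakest deposited peak had 7. This is the window printed above with the ETS-IRF match TTTCACTTCC.

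Next to it, 10.2 kb upstream of Cebpg at chr7:35066655-35066984, a region within 1 kb of a start of Gm45096 was picked after its values were seen. It had 2.71 and 2.45 in WT, no peak in IRF8KO replicate 1 and 0.211 in IRF8KO replicate 2. The authors' −log10 q was 94.8 and 92.3 in WT and 0.68 in IRF8KO replicate 2. The gap between genotypes was far larger than the spread within WT.

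A further region in the same lincRNA gene, 8.5 kb upstream of Cebpg at chr7:35064696-35065366 and likewise picked afterwards, had 2.60 and 2.11 in WT, against 2.06 and 2.94 in IRF8KO. The groups overlapped there, although on the centred scale both IRF8KO values lay above both WT values, and the Cebpg promoter itself kept a strict peak in all 4 libraries. Farther upstream, 30.2 kb from Cebpg and within 1 kb of a start of Gm35611, the values were 1.02 and 1.25 in WT and 0.558 and 0.906 in IRF8KO, apart on both scales.

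The other WT-only region lay 13.4 kb upstream of Cebpe at chr14:54725471-54725737, in an intron of Slc7a8, an amino acid transporter gene. It had 0.362 and 0.286 in WT, below the class median, and no peak in IRF8KO.

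The ETS-IRF composite was found in 2 of the 102 summit windows (1.96%), searched on both strands, against 4.3% of all windows of this length. Besides the Cebpg region the second lay 45.1 kb upstream of Cebpb at chr2:167643654-167643996, with GGAAATGAAA on the plus strand. Its scaled pileup was 0.532 and 0.429 in WT, 0.196 in IRF8KO replicate 2 and no peak in IRF8KO replicate 1. This region was picked after its values were seen. Of all WT-only regions 18.7% held the composite, and of all IRF8KO-only regions 1.83%.

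The region with the largest excess in IRF8KO lay 39.5 kb upstream of Cebpb at chr2:167649203-167649710, in introns of Tmem189 and Gm20431. Its scaled pileup was 1.38 in WT replicate 1, 0.920 in WT replicate 2, 4.01 in IRF8KO replicate 1 and 4.39 in IRF8KO replicate 2. The groups were far apart, with means of 1.15 ± 0.328 and 4.20 ± 0.271 (SD, n = 2 each), a ratio of 3.65. Of the 58550 regions, 1.37% had a ratio as high or higher. The log2 ratio of 1.87 was 2.22 on the centred scale and 0.89 with the authors' fold enrichment, which was 13.6 and 9.99 in WT and 21.3 and 22.4 in IRF8KO. In IRF8KO it was the tallest region of the Cebpb window, above the promoter. In WT the tallest was the one 32.1 kb upstream, at 3.88 and 2.84 in WT and 3.06 and 3.40 in IRF8KO, where the groups overlapped.

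At 26.3 kb downstream of Cebpb, in an intron of the lincRNA gene A530013C23Rik, a weaker region had 0.192 and 0.205 in WT, against 0.406 and 0.498 in IRF8KO. The means of 0.198 ± 0.00906 and 0.452 ± 0.0652 (SD, n = 2 each) were 2.28-fold apart, and the WT peaks were below the strict threshold. An IRF8KO-only region lay closer, 2.4 kb upstream of Cebpb at chr2:167686380-167686557, with 0.495 and 0.544 in IRF8KO. Its lower value would have given 23.2 cut sites in the shallower WT library, where the weakest deposited peak anywhere had 6.

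**Figure D3:**
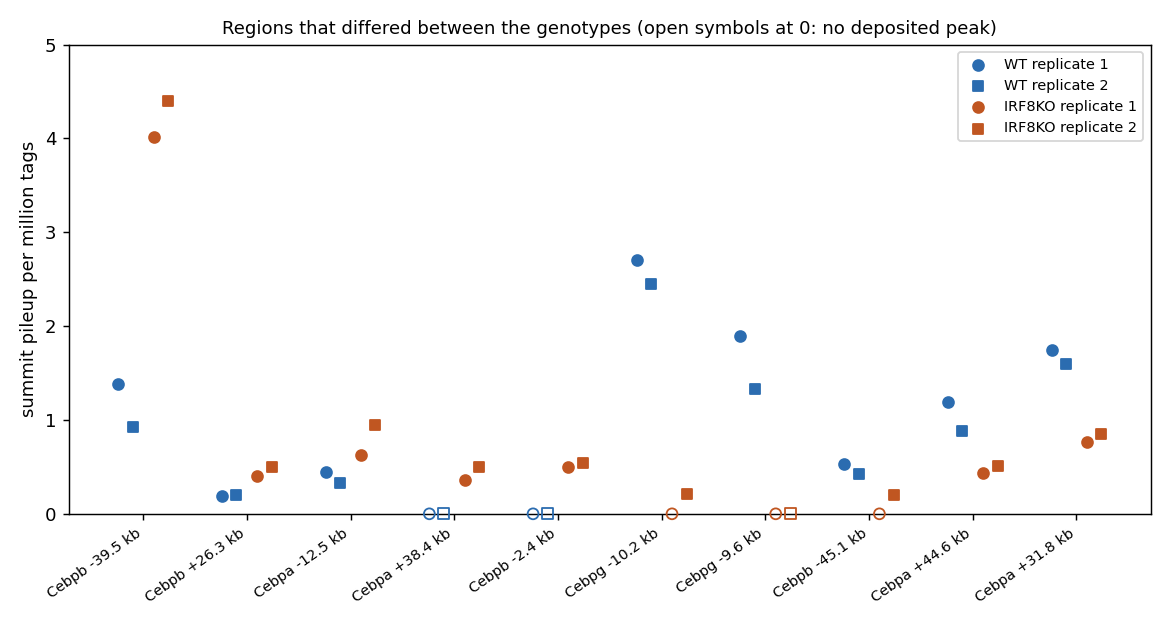
Scaled summit pileup (per 1000000 tags) in each library for 10 of the regions described in the text; open symbols at 0 mark libraries with no deposited peak. The region 39.5 kb upstream of Cebpb stands apart at 4.01 and 4.39 in IRF8KO, and those 9.6 and 10.2 kb upstream of Cebpg have 1.33 to 2.71 in WT and at most 0.211 in IRF8KO.

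Cebpa had differences in both directions. The region 12.5 kb upstream at chr7:35106609-35106984, between genes, had 0.447 and 0.327 in WT, against 0.622 and 0.951 in IRF8KO. The IRF8KO mean was 2.03-fold that of WT, and 5.33% of the 58550 regions had a ratio as high. IRF8KO-only regions lay 30.8, 38.4 and 50.1 kb downstream, with means of 0.308, 0.427 and 0.282 in IRF8KO, near their class median of 0.319. Their lower values would have given 11.9, 16.7 and 12.8 cut sites in the shallower WT library, where the weakest peak anywhere had 6. The level needed for a call varies with the local background, however. Peaks picked afterwards in that library had a pileup of 17 and a fold enrichment of 3.21 at 30.2 kb downstream, and 16 and 2.09 at 19.5 kb upstream. A missing WT peak where 11.9 or 12.8 was expected therefore says little. At a −log10 q of 5, those at 30.8 and 50.1 kb were no longer IRF8KO-only and the one at 38.4 kb was.

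Regions with no overlap between groups and a mean at least 2-fold higher in IRF8KO numbered 3 of 59 in all windows, against 5.39% of all regions, and 4 of 59 were at least 2-fold higher in WT, against 12.6%. On the centred scale the counts were 4 in IRF8KO, against 8.56%, and 0 in WT, against 7.81%. The fourth region in IRF8KO, picked after its values were seen, lay 26.0 kb downstream of Cebpa, at 0.639 and 0.245 in WT and 0.495 and 1.07 in IRF8KO, which overlapped before centring. Downstream of Cebpa lay 3 of the 4 regions that were 2-fold higher in WT before centring. The one at 44.6 kb had 1.19 and 0.879 in WT and 0.432 and 0.513 in IRF8KO, a ratio of 2.19. The one at 31.8 kb had 1.75 and 1.60 in WT and 0.761 and 0.846 in IRF8KO, and the one at 20.8 kb had 1.73 and 1.47 against 0.609 and 0.936; the latter was picked after its values were seen. The groups did not overlap in any of the 3 on either scale. Between them, a region picked afterwards, 37.4 kb downstream at chr7:35156317-35156920, near the position known for an enhancer of Cebpa in blood progenitors, had 1.73 and 1.72 in WT and 1.13 and 2.07 in IRF8KO, which overlapped.

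Cebpd had no WT-only region and 1 weak IRF8KO-only region, 44.2 kb downstream in an intron of Spidr, with 0.152 and 0.242 in IRF8KO. Its lower value would have given 7.15 cut sites in the shallower WT library, hardly above the weakest deposited peak of 6, and the call ended at a −log10 q of 5. Farther upstream, 27.1 kb from the start at chr16:15860108-15860562, a region in an intron of Mzt2 was picked after its values were seen. It had 0.809 and 0.695 in WT, 0.178 in IRF8KO replicate 1, where it was not strict, and no peak in IRF8KO replicate 2. Both WT values lay well above that of IRF8KO replicate 1. The region 9.9 kb upstream of Cebpd had 0.405 and 0.205 in WT and 0.127 and 0.136 in IRF8KO, a WT mean 2.32-fold that of IRF8KO. Its log2 ratio of -1.21 rested in part on WT replicate 1 and was -0.64 without it. All 4 of these values are low, and the IRF8KO peaks were below the strict threshold. At the body of Cebpd, 0.9 kb past its start, the values were 1.17 and 0.941 in WT and 0.482 and 0.785 in IRF8KO. A peak 1.9 kb past the start was listed in IRF8KO replicate 2 alone, at 0.755.

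At Cebpe the tallest region lay 25.5 kb downstream, within 1 kb of starts of Acin1 and 1700123O20Rik. It had 4.13 and 3.68 in WT and 1.95 and 2.61 in IRF8KO. A pair of regions in Slc7a8 introns went opposite ways. At 36.3 kb upstream the values were 0.916 and 0.573 in WT and 0.292 and 0.498 in IRF8KO, and at 37.3 kb upstream they were 1.04 and 1.12 in WT and 1.27 and 1.89 in IRF8KO.

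A deposited peak in all 4 libraries was held by 59 of the 102 regions, and 43 lacked one in at least 1 library. Both WT values lay above both IRF8KO values in 21 of the 59 (35.6%), against 37.1% of all such regions, and the converse held in 4 (6.78%), against 11.9%. On the centred scale the counts were 15 (25.4%, against 29.0%) and 19 (32.2%, against 29.5%). On both scales at once they were 13 (22.0%, against 26.0%) and 4 (6.78%, against 11.6%). The 4 were those 12.5 kb upstream of Cebpa, 39.5 kb upstream and 26.3 kb downstream of Cebpb, and 37.3 kb upstream of Cebpe. The median log2 ratio of the 59 was -0.26, against -0.28 over all regions, with a range of -1.21 to 1.87.

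**Figure D4:**
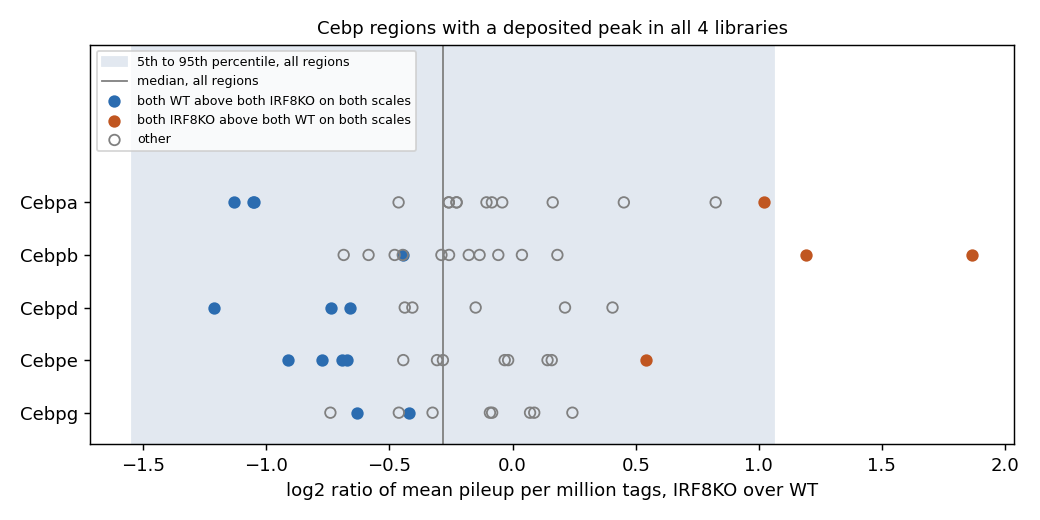
Log2 ratio of IRF8KO over WT mean scaled pileup (per 1000000 tags) for the 59 regions with a peak in all 4 libraries, by gene; the shaded band spans the 5th to 95th percentile of all 58550 regions (-1.54 to 1.06). Both points beyond the band are Cebpb regions, at 1.19 and 1.87.

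The C/EBP motif TTGCNNAA itself was found in 11 of the 102 windows (10.8%), against 9.54% of all windows. AP-1, as TGACTCA or TGAGTCA, was found in 8 (7.84%, against 5.91%), the ETS motif AGGAAGT in 22 (21.6%, against 17.7%), RUNX as TGTGGTT in 7 (6.86%, against 5.57%) and the ISRE-like pattern (GAAA, any 2 bases, then GAAA) in 2 (1.96%, against 3.13%). Among all regions strict in every library the shares were 9.46% for C/EBP, 6.13% for AP-1, 22.2% for ETS, 5.72% for RUNX and 3.27% for ISRE-like. Of all IRF8KO-only regions 20.6% held the C/EBP, 15.2% the AP-1 and 11% the RUNX motif, against 8.45%, 4.27% and 5.05% of all WT-only regions. For ETS these shares were 20.8% and 21.9%, and for the ISRE-like pattern 2.96% and 6.32%. Both strands were searched, and the ETS-IRF and ISRE-like patterns can overlap. None of the 6 motifs was found in the RefSeq promoters (GRCm38.p6) of Cebpa, Cebpb or Cebpg, from 250 bases before to 50 after the start. Cebpd and Cebpe had no entry in this promoter set and were not searched there. Of all such promoters, 10.8% held the C/EBP, 2.72% the ETS-IRF, 3.44% the ISRE-like, 9.35% the ETS, 5.20% the AP-1 and 5.27% the RUNX motif. These 3 promoters are rich in G and C, at 67.3%, 80.7% and 71.7% in the same order, against a median of 52.7%. Some summit windows of regions within 1 kb of a Cebp start did hold a match. These were C/EBP 0.7 kb upstream of Cebpg, ISRE-like 0.7 kb upstream of Cebpa, ETS 0.9 kb upstream of Cebpe and RUNX 1.9 kb past the Cebpd start.

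Around 17 genes of C/EBP dimer partners and regulators there were 349 regions, with 20 WT-only (5.73%, against 5.58%) and 17 IRF8KO-only (4.87%, against 3.86%). Windows of neighbouring genes can share regions, which the counts by gene then hold more than once. Batf3, a basic leucine zipper factor of dendritic cells, had 7 WT-only and 1 IRF8KO-only of 31 regions, and Fos, an AP-1 subunit, had 4 and 1 of 29. Dbp and Fbxw7 had 3 and 1 each, of 23 and 34 regions, Atf3 had 2 and 3 of 45 and Gsk3b had 1 and 2 of 21. The windows of Jun (18 regions) and of Trib1 (22), whose protein directs C/EBP-alpha to degradation, had 2 IRF8KO-only regions each and no WT-only one. Around 24 myeloid genes known as C/EBP targets there were 389 regions, with 15 WT-only (3.86%) and 14 IRF8KO-only (3.60%). Csf1r and Pparg had 3 WT-only and 1 IRF8KO-only region each (of 35 and 27), Cd14 had 2 and 1 of 26, and Il6 had 2 WT-only ones of 12. Lcn2 and Saa3 had 2 IRF8KO-only regions each (of 21 and 16). Ltf had 1 WT-only and 2 IRF8KO-only of 18, and Il6ra and Nos2 had 1 of each (of 25 and 16). Of regions with a peak in all 4 libraries, both WT values lay above both IRF8KO values in 72 of 181 for the partners (39.8%) and 89 of 202 for the targets (44.1%), against 37.1%. The converse held in 23 (12.7%) and 27 (13.4%), against 11.9%. On the centred scale the WT-higher shares were 27.1% and 26.7%, against 29.0%, and the IRF8KO-higher shares 26.5% and 27.7%, against 29.5%. The median log2 ratio was -0.27 for the partners and -0.34 for the targets, against -0.28.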

How the data were processed

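Peak lists of 4 ATAC-seq libraries were used as the authors deposited them. Per the file headers, each library had its own MACS2 run (version 2.1.1.20160309), with no control library and a p cutoff of 0.01, and cut sites were shifted by 37 bp and extended to 73 bp. Peaks were not called on pooled libraries. Bowtie2, bcl2fastq and deepTools and the build mm10 are named in the submitters' processing notes. The deposited pileup is a signal in whole numbers, not scaled for depth, and the deposited fold enrichment is a ratio to the local background. The deposited p and q are −log10 values; although each header announces no q calculation, the column held values that follow p. These scores are the authors' own.

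Intervals repeated for several summits were reduced to 1 peak with its best summit, on the 19 autosomes and chromosome X. All peaks used lay inside the GRCm38 chromosome lengths, and genes came from GENCODE M21. A region's value in a library was the highest pileup of any overlapping peak (1 bp), per 1000000 header tags. Libraries were compared by exact permutation tests; single regions were not tested. Overlap and class steps were tested on simulated data. Named were all promoters of the genes, all regions of 1 genotype, the tallest region per window and the largest ratios without overlap in each direction; others are said to have been picked afterwards. The members, lists and rules were chosen with earlier results of these data known. Python 3.11.15 and pandas 2.3.3 were used.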

Additional observations from a re-analysis of the deposited data

How the results depend on the processing

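Depth differed 1.51-fold between the genotypes, so a missing weak peak in the shallower WT libraries is not evidence of closed chromatin. The difference in strict peaks between IRF8KO and WT of -4.0 ran from -10.0 to 2.0 when 1 library was left out, with 2.0 without WT replicate 1 (exact permutation p 1.0), and stayed below 0 in the other settings tried. The bases covered stayed above 0 in all settings, from 40 to 3761 when 1 library was left out. With the replicate number as a block, an exact sign-flip test over the 2 pairs gave p 1.0 for both. Same-numbered libraries did not deviate together, with a correlation of 0.004 over 58550 regions.

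WT-only regions numbered 1 of 35 with 10 kb on each side of the genes and 8 of 176 with 100 kb (2.86% and 4.55%, against 5.58%), and 8 of 102 when absence meant no strict peak (7.84%, against 7.85%). They ran from 3 to 12 when 1 library was left out, with 3.33% against 17.9% without WT replicate 1. IRF8KO-only regions lay below the background at a −log10 q of 5 (2 of 77, against 3.51%), at a fold enrichment of 5 (0 of 58, against 2.37%) and with 10 kb (1 of 35, against 3.86%). They lay above it with 100 kb (10 of 176, 5.68%, against 3.86%) and when absence meant no strict peak (10 of 102, 9.80%, against 5.55%). They ran from 5 to 9 when 1 library was left out. Wider windows, looser absence and fewer libraries admit more regions by construction.

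The median log2 ratio of -0.26 was 0.079 on the centred scale, where the median of all regions is 0 by construction, and ran from -0.53 to -0.01 when 1 library was left out. In the latter settings the median of all regions ran from -0.607 to -0.029, and the Cebp median lay 0.006 to 0.127 above it. The regions 0.9 kb and 0.7 kb upstream of Cebpa turned from higher in WT to log2 ratios of 0.092 and 0.079 on the centred scale. Ratios of regions whose groups had overlapped also changed sign there, at the Cebpa promoter (-0.08 to 0.22), the Cebpd promoter (-0.15 to 0.16) and 32.1 kb upstream of Cebpb (-0.06 to 0.28). The scaling itself shifts the median of all regions from -0.28 to 0. Of the 21 named ratios, 9 others, these 3 included, moved by more than the replicate SD on that scale and 7 did with the authors' fold enrichment.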
